A study of Mus musculus with 6 samples.

Results

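The genes described here encode semaphorins, plexins and neuropilins, read in sorted neuronal nuclei of the mouse medial prefrontal cortex (mPFC). The family was chosen with earlier results of these data known, among them the Nrp2 difference. Its members were then taken by name: every row of the deposited count table whose symbol was Sema3 to Sema7 with a letter, Plxn with a class letter and number, or Nrp1 or Nrp2. This gave 31 of 24421 genes, made up of 20 semaphorins, 9 plexins and 2 neuropilins. All nuclei came from Foxp2-Cre mice whose mPFC had received a bilateral injection of an adeno-associated virus expressing KASH-GFP, a green fluorescent protein tethered to the nuclear envelope, 4 weeks earlier. In this model the labelled nuclei are those of cells in which the Foxp2 driver makes Cre. The treated group had received CFA, which stands for complete Freund's adjuvant and is given to model lasting inflammatory pain, and the control group saline, with 3 libraries each. Both groups carried the same driver and virus. The labels give neither the age or sex of the mice, nor the time between CFA and collection, nor whether a library held 1 animal or several. The p-values below therefore measure only how far these libraries spread, and some of that spread may be technical. The study compared the pain model with its control to find transcripts of these neurons that differ.

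Semaphorins are guidance proteins that steer axons, shape dendrites and adjust synapses, and plexins are their receptors. Class 3 semaphorins are secreted and mostly reach plexins through a neuropilin, which binds the ligand but has little signalling of its own. Classes 4 to 6 cross the membrane, class 7 is held by a lipid anchor, and these bind plexins largely without a neuropilin. Inside the cell, plexins act on small GTPases and on the actin and microtubule skeleton. In the cortex, Sema3a acts through Nrp1 with A-type plexins, chiefly Plxna4, in the growth of basal dendrites, whereas Sema3f acts through Nrp2 and Plxna3 in limiting spines on the apical dendrites of deep-layer pyramidal neurons.

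Nrp2 had the smallest p of the family and Nrp1 overlapped between groups, so the sequences just before the start sites of these 2 relatives are shown. Each line gives the 250 bases before the RefSeq start (build GRCm38.p6, the same coordinates as mm10), 5′ to 3′ on the plus strand, on which both genes lie. Capitals mark the GC box GGGCGG, searched on both strands. The Nrp2 window is chr1:62703067-62703316 and the Nrp1 window is chr8:128358823-128359072.
Nrp2: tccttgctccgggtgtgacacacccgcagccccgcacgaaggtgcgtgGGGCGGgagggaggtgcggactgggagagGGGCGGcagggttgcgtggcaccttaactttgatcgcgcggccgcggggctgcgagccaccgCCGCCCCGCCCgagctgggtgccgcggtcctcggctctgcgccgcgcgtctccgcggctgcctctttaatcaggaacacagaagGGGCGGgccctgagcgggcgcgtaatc
Nrp1: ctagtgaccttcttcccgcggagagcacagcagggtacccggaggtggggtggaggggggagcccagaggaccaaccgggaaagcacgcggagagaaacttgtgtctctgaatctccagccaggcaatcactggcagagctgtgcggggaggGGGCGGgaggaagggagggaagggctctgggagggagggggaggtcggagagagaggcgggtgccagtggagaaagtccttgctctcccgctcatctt
The Nrp2 window held 5 GC boxes, 2 of them overlapping each other on the minus strand, and 32 CG dinucleotides. The Nrp1 window held 1 GC box and 11 CG dinucleotides. Of 32851 mouse promoter windows of this length, 32.7% held a GC box, and the median window had 6 CG dinucleotides. None of the other motifs searched on both strands was present in either window: the cAMP response element TGACGTCA (in 1.55% of all windows), the E-box CACGTG (6.02%), TATAAA (12.4%) and CCAAT (33.8%). Among the family, 26 genes had at least 1 window in this table, 37 windows in all with a median of 13 CG dinucleotides. Plxna1, Plxna4, Sema3b, Sema3f and Sema6a had none. These matches describe letters only, since binding was not measured.

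Total counts were 9673038 to 11850741 per library, and 13560 genes were tested. Values are CPM, library-scaled counts adjusted by TMM (trimmed mean of M-values) factors. Levels of different genes are compared only as CPM per kilobase of exon. Slc17a7, the vesicular glutamate transporter of cortical excitatory neurons, was at 1931 to 2645 CPM in all libraries and Foxp2 itself at 24.0 to 43.7 CPM, while Gad1 and Gad2, which mark inhibitory neurons, were at 44.6 to 81.6 and 14.0 to 31.4 CPM. Foxp2 counts and excitatory markers were thus present in every library, with inhibitory, striatal and glial transcripts also present. Without an unsorted library for comparison, these levels do not show how far the label "Foxp2 positive neurons" was met. No gene of the whole table passed an adjusted p of 0.05 (edgeR quasi-likelihood, adjusted by Benjamini and Hochberg over all genes). The unadjusted p was under 0.05 for 437 genes, and the other tools are given in the closing section.

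The family's transcripts spanned a wide range of levels, led by transmembrane ligands. Sema6b, a ligand of A-type plexins, had the highest mean level per exon length (44.9 CPM per kb over the 6 libraries), followed by Sema4a, a class 4 ligand, at 42.2 CPM per kb. The receptor Plxna2 and the co-receptor Nrp1 came next at 19.9 and 19.5 CPM per kb, then Sema5b at 18.9, Sema4f at 15 and Plxna1 at 11.0 CPM per kb. These 7 genes lay above the median of all genes tested, 10.1 CPM per kb, and the other 24 lay below it. The members had a median exon length of 6022 bases, against 2982 for the genes tested. Whether length contributed to these positions was not tested. Nrp2 was far down the order of members at 3.67 CPM per kb. The order of close neighbours was not firm. Sema6b exceeded Sema4a in 5 of 6 libraries and Sema4a exceeded Plxna2 in all 6, but Plxna2 exceeded Nrp1, and Nrp1 exceeded Sema5b, in 3 of 6. At the low end, Plxnb3 had 0.245 and Sema3b 0.52 CPM per kb. Sema3g had a count of 0 in every library, which allows at most 0.25 to 0.304 CPM per library by counting error alone, and it did not enter the test.

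**Figure D1:**
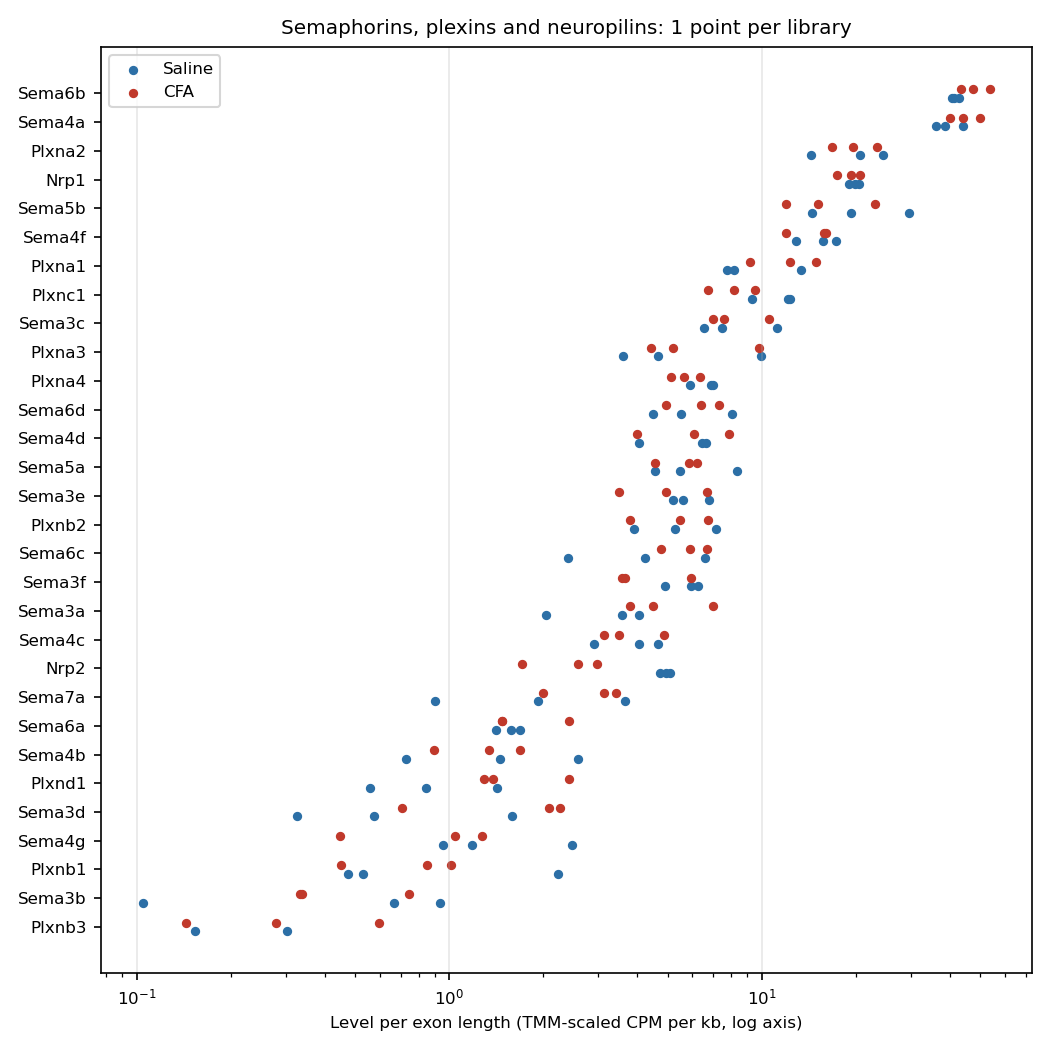
Level per exon length (TMM-scaled CPM per kb of exon, log axis) of the 30 genes with any count, 1 point per library, saline in blue and CFA in red, ordered by the mean of all 6 libraries. Sema6b and Sema4a lie highest at means of 44.9 and 42.2 CPM per kb. Nrp2 is the gene whose red and blue points lie furthest apart without meeting, and a value of 0 (Plxnb3 in saline replicate 1) is not drawn.

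Neuropilins bind class 3 semaphorins, and both also bind members of the vascular endothelial growth factor family. Nrp2 was at 24.1, 13.9 and 21.1 CPM in CFA replicates 1, 2 and 3 and at 40.2, 41.3 and 38.4 CPM in saline replicates 1, 2 and 3. All 3 CFA libraries lay below all 3 saline libraries, and the saline libraries lay close together. The means were 19.7 ± 5.23 CPM (SD, n = 3) in CFA and 39.9 ± 1.44 CPM (SD, n = 3) in saline. The log2 fold change was -1.02 ± 0.24 (SE), with a 95% interval of -1.53 to -0.51. This difference was larger than the spread between libraries taken alone (unadjusted p = 0.000743, edgeR quasi-likelihood), but it did not pass over all genes (adjusted p = 0.952). It had also been seen before the family was chosen, so it is given as a description. The count was 290, 158 and 219 in CFA and 449, 445 and 379 in saline libraries. The gene lies on chromosome 1 from 62703317 to 62818692 (mm10), with 8122 bases of exon in the table, none shared with another gene model.

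Nrp1, the co-receptor of Sema3a, did not follow. It was at 114, 104 and 123 CPM in the CFA libraries and 113, 122 and 117 CPM in the saline libraries, and the groups overlapped. Its log2 fold change was -0.047 ± 0.16 (SE), with an interval of -0.40 to 0.30 and an adjusted p of 1 (edgeR quasi-likelihood). It was the steadiest member, with a highest library only 1.18 times the lowest. The gene lies on chromosome 8 from 128359073 to 128505475, and 1.35% of its exon bases are shared with the microRNA gene Mir1903 on the same strand.

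Within a library, the balance of the 2 co-receptors needs no scaling factor. Nrp2 made up 17.4%, 11.9% and 14.7% of neuropilin counts in CFA replicates 1 to 3 and 26.3%, 25.3% and 24.6% in saline replicates 1 to 3. Exact binomial 95% intervals, which cover counting error only, reached at most 19.3% in the CFA libraries and at least 22.5% in the saline libraries. The mean share was 14.7 ± 2.79% (SD, n = 3) in CFA and 25.4 ± 0.826% (SD, n = 3) in saline, a difference of -10.8 percentage points. A two-sided exact permutation test gave p = 0.1, the smallest that 3 against 3 libraries allow. The separation of Nrp2 was known beforehand and Nrp1 differed little, so this p adds no separate support. The share is therefore given as a description. Per exon length, Nrp1 was 6.50, 10.2 and 7.99 times Nrp2 in the CFA libraries and 3.85, 4.04 and 4.20 times Nrp2 in the saline libraries.

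**Figure D2:**
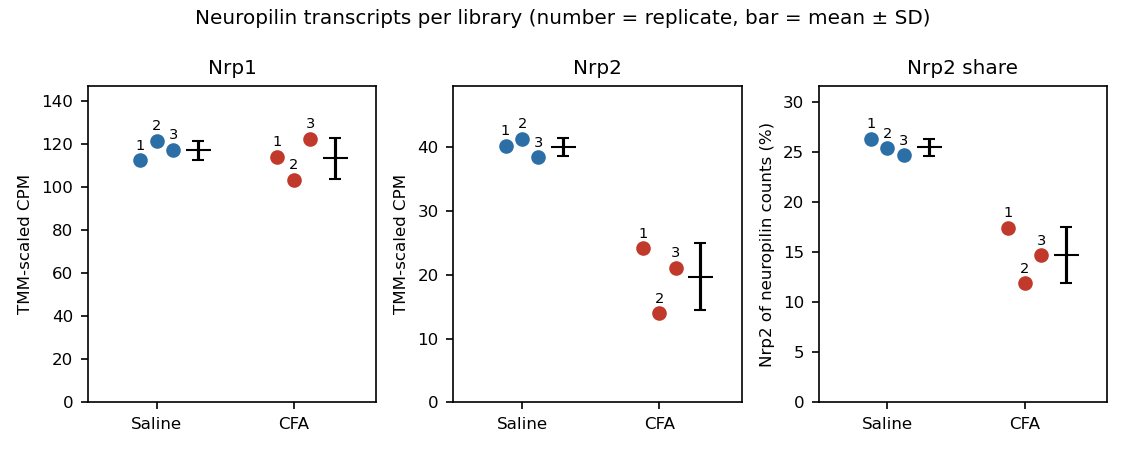
Nrp1 and Nrp2 (TMM-scaled CPM) and the Nrp2 share of neuropilin counts (percent) by group, with 1 point per library, the replicate number above it, and the mean ± SD beside the points. Nrp1 overlaps between groups at 104 to 123 CPM, while Nrp2 is at 13.9 to 24.1 CPM after CFA and 38.4 to 41.3 CPM after saline.

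Bulk libraries of sorted nuclei cannot tell fewer nuclei of a type from less RNA per nucleus. For layer 6b neurons, the deepest cortical cells, the summed level of 5 markers was 121 to 196 CPM after CFA and 198 to 310 CPM after saline. The groups were thus separated by a narrow margin. Most of the sum, with means of 154 and 242 CPM, came from Ctgf, at 126 ± 31.0 and 200 ± 54.0 CPM. Of the 5 fold changes, 4 were negative and 1 positive. The groups did not overlap for 2 markers, both lower (background 3.97%), and 1 had an unadjusted p under 0.05, lower in CFA (background 1.87%). All 8 tested striatal projection neuron markers had negative log2 fold changes, with a median of -1.03. Of these 8, 6 had an unadjusted p under 0.05, all lower in CFA (background 1.87%), and 2 did not overlap between the groups (background 3.97%). Their summed levels overlapped, at 246 to 430 CPM after CFA and 358 to 911 CPM after saline. Corticothalamic markers (1246 to 1392 and 1257 to 1653 CPM, with 9 of 10 fold changes negative) and inhibitory markers (117 to 190 and 124 to 180 CPM, with 8 of 10 tested fold changes positive) overlapped too. Both lists held 1 marker at an unadjusted p under 0.05, lower in CFA (background 1.87%). The groups did not overlap for 1 corticothalamic marker, lower in CFA (background 3.97%), and for 0 inhibitory markers. Microglia markers were at 99.5 to 157 CPM after CFA and 79.7 to 113 CPM after saline, with 9 of 10 fold changes positive and a median of 0.61. Of these 10, 1 had an unadjusted p under 0.05, higher in CFA (background 1.35%), and 1 was higher without overlap (background 3.55%). Astrocyte markers were at 494 to 687 and 491 to 562 CPM, with 5 of 10 positive and a median of 0.23. Of these 10, 3 (Slc1a3, Aldoc and Fgfr3) had an unadjusted p under 0.05, all higher (background 1.35%) and without overlap (background 3.55%). Oligodendrocyte precursor markers were at 69.3 to 97.7 and 47.3 to 80.9 CPM, with 5 of 7 tested fold changes positive and a median of 0.69. Of these 7, 2 had an unadjusted p under 0.05, both higher (background 1.35%). The groups did not overlap for 3, of which 2 were higher (background 3.55%) and 1 lower (background 3.97%). Oligodendrocyte markers were at 319 to 499 CPM after CFA and 357 to 447 CPM after saline, with 5 of 10 fold changes positive. Vascular and meningeal markers were at 5.19 to 13.5 CPM after CFA and 6.08 to 18.6 CPM after saline, with all 5 tested fold changes negative. Excitatory markers were at 2562 to 3332 and 2589 to 2960 CPM, with 5 of 6 positive. Neither of these lists held a marker at an unadjusted p under 0.05 (background 3.22%) or without overlap (background 7.51%). Each list had counts for all its markers in at least 1 library. The part of these cell types in the Nrp2 values was not tested.

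Across the family, 0 of the 30 tested members passed an adjusted p of 0.05, as for the table as a whole (0%). At an unadjusted p under 0.05 there were 3 members (10.0%), against 3.22% of all genes tested. Of these, Nrp2 and Plxnc1 were lower in CFA, where the background was 1.87%, and Sema3a was higher, where it was 1.35%. The groups did not overlap for 2 members (6.67%), against 7.51% of all genes: Nrp2 lower (background 3.97%) and Sema6b higher (background 3.55%). Fold changes were positive for 14 and negative for 16 members, with a median of -0.012, beside a median of -0.0011 over all genes. The share without overlap and the median were thus near those of all genes, and the count by unadjusted p rests on 3 genes. Both counts include Nrp2, whose difference was known when the family was chosen. They are therefore a description and no test of the family. Without a filter on low counts, 5 of 30 members had an unadjusted p under 0.05, against 4.12% of all genes in that fit. These were the same 3 together with Sema3d and Plxnd1, which were rare at means of 8.21 and 9.11 CPM.

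The precision differed widely between members. The 95% interval of a log2 fold change reached 0.35 to either side for the best-measured gene, 0.59 for the median member and 2.17 for Plxnb3. For 27 of 30 members it included 0. Of the 22 members with a mean of at least 10 CPM, 19 had an interval inside -1 to 1, so a doubling or halving lay outside it. For the 8 rarer members the intervals reached past that size.

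**Figure D3:**
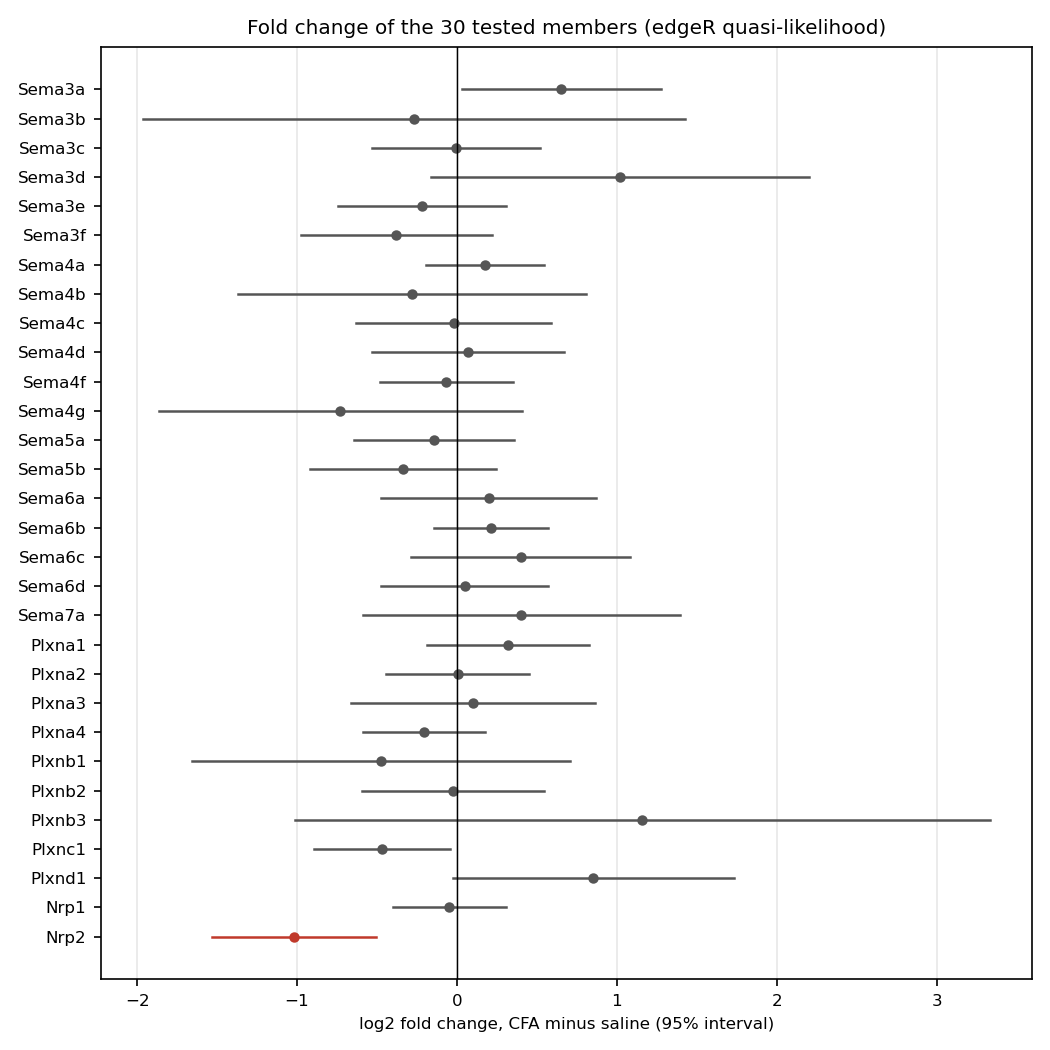
log2 fold change (CFA minus saline) of the 30 tested members with 95% intervals from edgeR's quasi-likelihood fit, Nrp2 in red. The intervals of Nrp2 (-1.53 to -0.51), Plxnc1 (-0.90 to -0.04) and Sema3a (0.03 to 1.28) do not include 0, and none of these members passed the adjusted threshold.

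Among the secreted class 3 ligands, Sema3c and Sema3e had the highest levels per exon length, at 8.39 and 5.46 CPM per kb. Sema3c, which signals through both neuropilins, was at 37.4, 34.7 and 52.4 CPM in CFA and 32.4, 55.5 and 37.0 CPM in saline libraries, with an interval of the log2 fold change from -0.53 to 0.52. Sema3e, which can bind Plxnd1 without a neuropilin, was at 33.9, 24.1 and 45.8 CPM in CFA and 38.4, 46.7 and 35.7 CPM in saline libraries. For both genes the groups overlapped.

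Sema3a, the founding repulsive semaphorin of vertebrates and a ligand of Nrp1, was at 32.7, 50.9 and 27.6 CPM in CFA and 26.1, 29.6 and 14.9 CPM in saline libraries. CFA replicate 2 was the highest library and saline replicate 3 the lowest, and the groups overlapped between 27.6 and 29.6 CPM. The log2 fold change was 0.65 ± 0.29 (SE), with an unadjusted p of 0.041 and an adjusted p of 1 (edgeR quasi-likelihood). Leaving out CFA replicate 2 gave 0.36, and leaving out saline replicate 3 gave 0.41. Sema3f, the chief semaphorin ligand of Nrp2, was at 12.4, 20.2 and 12.1 CPM in CFA and 21.3, 16.7 and 20.2 CPM in saline libraries. Its interval ran from -0.98 to 0.22, and its log2 fold change of -0.38 became -0.66 without CFA replicate 2 and -0.25 without CFA replicate 3. Sema3d varied widely between libraries of the same group, at 14.8, 13.6 and 4.61 CPM in CFA and 3.76, 10.4 and 2.13 CPM in saline. Its log2 fold change of 1.02 had an interval of -0.16 to 2.2, and the value ran from 0.64 without saline replicate 3 to 1.90 without saline replicate 2. Sema3b was at 2.01 ± 1.01 and 2.42 ± 1.81 CPM (SD, n = 3).

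The class 4 ligands are transmembrane proteins that act mainly on B-type plexins. Sema4a was at 153, 138 and 173 CPM in CFA and 134, 152 and 124 CPM in saline libraries, with an interval of the log2 fold change from -0.19 to 0.54. Sema4f, found at glutamatergic synapses, was at 80.0, 60.0 and 80.7 CPM in CFA and 64.9, 79.1 and 87.4 CPM in saline libraries. Neither separated the groups. Sema4d, the best-known ligand of Plxnb1, was at 27.2 ± 8.77 CPM after CFA and 25.9 ± 6.52 CPM after saline (SD, n = 3), and Sema4c, a ligand of Plxnb2, was at 16.4 ± 3.93 and 16.6 ± 3.86 CPM. Sema4b and Sema4g were scarce, at 5.72 and 5.29 CPM over all libraries, and both were highest in saline replicate 3 (10.2 and 10.6 CPM).

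Sema5a and Sema5b carry thrombospondin repeats beside the semaphorin domain and can bind A-type plexins. Sema5b was at 105, 54.4 and 68.8 CPM in CFA and 88.3, 66.1 and 135 CPM in saline libraries, so each group held a high and a low library. Its log2 fold change was -0.34 with all libraries, -0.015 without saline replicate 3, -0.14 without CFA replicate 2, -0.55 without saline replicate 2 and -0.65 without CFA replicate 1. Sema5a was at 59.9 ± 9.32 and 66.2 ± 21.5 CPM. The class 6 ligands bind A-type plexins on neighbouring cells or on the same cell. Sema6b was at 189, 172 and 214 CPM in CFA and 162, 170 and 164 CPM in saline libraries, so the lowest CFA library lay just above the highest saline library. The difference was small, a log2 fold change of 0.21 ± 0.17 (SE), with an unadjusted p of 0.217 and an adjusted p of 1 (edgeR quasi-likelihood). Sema6d was at 44.8 ± 8.56 and 43.3 ± 13.0 CPM, Sema6c at 24.3 ± 4.04 and 18.4 ± 8.79 CPM, and Sema6a at 12.3 ± 3.75 and 10.8 ± 0.955 CPM. All 4 class 6 fold changes were positive with all libraries, with a median of 0.21, and none passed. The shared sign depended on single libraries. Sema6a was at -0.080 without CFA replicate 2, and Sema6d at -0.13 without saline replicate 1. The log2 fold change of Sema6c was 0.40, with 0.81 when saline replicate 3 was left out and 0.099 when saline replicate 1 was. Sema7a, the lipid-anchored ligand of Plxnc1 and of integrins, was at 9.33 ± 2.47 and 7.07 ± 4.56 CPM. Summed over all 20 ligands, semaphorin transcripts came to 840 ± 83.4 CPM after CFA and 809 ± 84.0 CPM after saline.

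A-type plexins pair with neuropilins to form the receptor of class 3 ligands. Plxna2, the most abundant plexin per exon length, was at 258, 185 and 217 CPM in CFA and 159, 229 and 270 CPM in saline libraries. Plxna1 was at 135, 82.9 and 112 CPM in CFA and 73.9, 70.1 and 120 CPM in saline libraries. For Plxna1 the groups overlapped because of saline replicate 3, without which the log2 fold change was 0.61 in place of 0.32. It was 0.49 without CFA replicate 2, 0.14 without CFA replicate 1, 0.18 without saline replicate 2 and 0.21 without saline replicate 1. Plxna3, the usual partner of Nrp2, was at 68.3, 30.7 and 36.0 CPM in CFA and 32.4, 25.0 and 68.9 CPM in saline libraries, with 1 high library in each group. Its interval of -0.66 to 0.86 contrasts in width with that of Plxna4, the usual partner of Nrp1, from -0.59 to 0.17. Plxna4 was at 71.8 ± 7.71 CPM after CFA and 83.0 ± 7.53 CPM after saline (SD, n = 3).

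Plxnc1, the receptor of Sema7a, was at 47.6, 57.4 and 67.2 CPM in CFA and 85.4, 65.6 and 87.2 CPM in saline libraries. The groups overlapped by 1 library each, CFA replicate 3 and saline replicate 2. The log2 fold change was -0.47 ± 0.20 (SE), with an unadjusted p of 0.0341 and an adjusted p of 1 (edgeR quasi-likelihood). It ranged from -0.59 to -0.35 when each library was left out in turn. Plxnd1, the receptor of Sema3e, was at 16.7, 8.91 and 9.52 CPM in CFA and 3.85, 5.84 and 9.83 CPM in saline libraries. Its log2 fold change of 0.85 had an interval of -0.03 to 1.73, and the value was 1.28 without saline replicate 3, 0.50 without CFA replicate 1 and 0.58 without saline replicate 1. Of the B-type plexins, receptors of class 4 ligands, Plxnb2 was at 35.6 ± 9.92 and 36.2 ± 10.8 CPM and Plxnb1 at 6.64 ± 2.50 and 9.27 ± 8.57 CPM. The spread of Plxnb1 in saline came from replicate 3, at 19.2 CPM against 4.56 and 4.08 CPM. Plxnb3 was at 2.04 ± 1.39 and 0.917 ± 0.912 CPM, with a count of 0 in saline replicate 1. Summed over the 9 receptors, plexin transcripts came to 560 ± 90.6 CPM after CFA and 565 ± 130 CPM after saline.

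For many members, the 2 highest values came from 1 library of each group. Such pairs are more numerous than pairs within a group, and they were common among all genes too. All pairs were tallied, and the pair with the most members was picked afterwards. It was also the most frequent pair over all genes, so its share is given as a description. CFA replicate 1 and saline replicate 3 held the 2 highest values for 12 of the 30 tested members, 40.0%, against 11.8% of all genes tested. These were 7 of the 9 plexins (all but Plxna4 and Plxnc1) and 5 of the 19 tested semaphorins (Sema4b, Sema4d, Sema4g, Sema5a and Sema5b). The same 2 libraries were highest for the nuclear long non-coding RNAs Meg3, at 4789 and 7595 CPM against 2496 to 4274 CPM elsewhere, and Snhg11, at 6924 and 10387 CPM against 4138 to 5620 CPM. For Malat1, saline replicate 3 was highest at 27109 CPM and CFA replicate 2 next at 21807 CPM. The 12 members had a median exon length of 6784 bases, against 5477 for the other 18. Whether RNA composition or transcript length contributed was not tested.

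**Figure D4:**
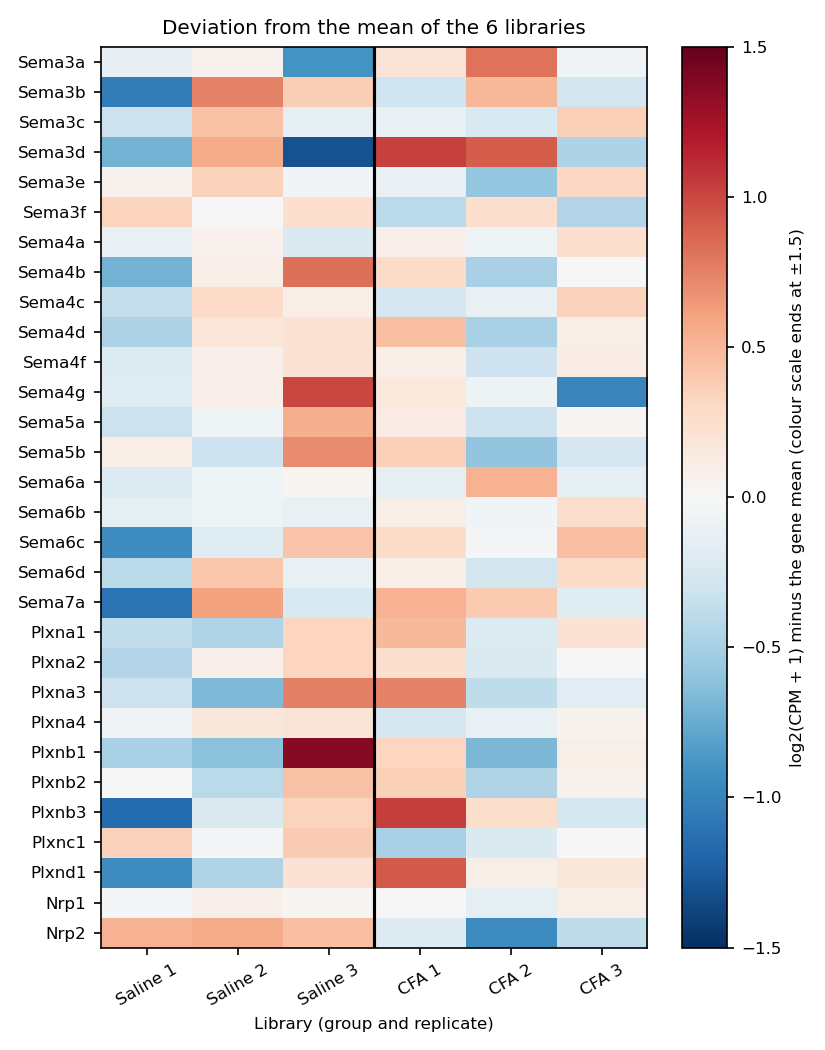
Deviation of each tested member from its mean over the 6 libraries, on the log2(CPM + 1) scale, with the 3 saline libraries left of the line and the 3 CFA libraries right of it. Nrp2 is red in all saline and blue in all CFA libraries, whereas plexins such as Plxna3 are red in saline replicate 3 and CFA replicate 1, the pattern shared by 12 members.

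Genes that act beside or below these receptors were taken from lists made for this comparison. Of 36 signal transducers, such as the collapsin response mediators, MICAL oxidases and small GTPases, 35 were tested and 0 passed, with 12 positive and 23 negative fold changes and a median of -0.076. Abl2, a kinase that regulates the actin skeleton, had the smallest p of this list. It was at 34.6, 18.7 and 23.9 CPM in CFA and 33.3, 35.4 and 51.4 CPM in saline libraries, with an unadjusted p of 0.0297 (edgeR quasi-likelihood). Of the 35, it was the only 1 with an unadjusted p under 0.05 (background 1.87%, lower in CFA). The groups did not overlap for 1 other transducer, lower in CFA (background 3.97%). Ranbp9, a scaffold protein that binds plexin A, was at 40.2 ± 10.6 and 54.0 ± 18.0 CPM. Of 20 co-receptors and other receptors, 15 were tested and 0 passed, with 7 positive and 8 negative fold changes and a median of -0.0070. Of these 15, the groups did not overlap for 2, of which 1 was higher (background 3.55%) and 1 lower (background 3.97%). The lower one was Cspg4, a proteoglycan of oligodendrocyte precursors. Cspg4 was at 2.08, 2.2 and 0.961 CPM in CFA and 3.76, 3.80 and 3.75 CPM in saline libraries. It is 1 of the 2 negative members among 7 tested markers of that cell type, the other 5 being positive. Erbb2, a receptor kinase that associates with B-type plexins, was at 2.69 ± 1.32 and 1.29 ± 0.639 CPM.

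Neuropilins have ligands outside the semaphorins, and 5 of 6 such genes in the table were tested. None passed, and the median was 0.087 with 3 positive and 2 negative fold changes. Vegfc, a growth factor that binds Nrp2 together with the receptor kinase Flt4, was at 7.99, 10.5 and 9.04 CPM in CFA and 3.94, 3.52 and 5.98 CPM in saline libraries. All CFA libraries lay above all saline libraries, as for 3.55% of all genes tested. Vegfc was the only 1 of the 5 without overlap. It was also the only 1 with an unadjusted p under 0.05 (background 1.35%, higher in CFA). The log2 fold change was 1.03 ± 0.40 (SE), with an unadjusted p of 0.021 and an adjusted p of 1 (edgeR quasi-likelihood). Flt4 was too rare to test, with a count above 0 in 1 library only (0.288 CPM in CFA replicate 3). Pgf, a ligand of Nrp1, was at 8.49 ± 0.311 and 11.8 ± 3.16 CPM, and Vegfa at 56.9 ± 7.08 and 53.6 ± 24.3 CPM.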

How the data were processed

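RNA of 10000 sorted nuclei per library was amplified with 9 PCR cycles and 300 ng of cDNA entered library preparation, per the labels' protocols. The deposited table holds raw counts per gene over exons. Per the submitters' processing notes the authors' tools were featureCounts 2.0.1, edgeR 3.32.1, HISAT2 2.2.1, SAMtools 1.13 and Trim Galore, with build mm10. How strand and multi-mapping reads were handled is not stated there. The exon lengths that accompany the counts are those of the deposited table.

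Genes were tested with edgeR 4.0.16 (R 4.3.3): TMM factors, filterByExpr, quasi-likelihood test with treatment as the only term, and Benjamini-Hochberg adjustment over 13560 genes. Standard errors came from the F statistic. The procedure was tested on simulated data. Every pair of libraries differed beyond sampling noise (chi-square per degree of freedom at least 17.2). The common biological coefficient of variation was 26.8%. The intervals of log2 fold changes use these standard errors and so include the spread between libraries. The binomial intervals of the Nrp2 share and the floors of 3 counts cover counting error only, and amplified reads are not independent molecules.

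The members and the gene lists were chosen with earlier results of these data known. Values per library are given for Nrp1, Nrp2, members with an unadjusted p under 0.05 or no overlap, and the 2 members of highest level per exon length among class 3 ligands, class 4 ligands, class 5 to 7 ligands and plexins. Of each pathway list, the 2 genes of smallest p are named. Values per library of Sema3f, Sema3d, Plxna3 and Plxnd1, and of Flt4 and Vegfa, and single libraries of other members, were added after their values were seen. The pair of libraries described for 12 members, and the 3 long non-coding RNAs beside it, were added in the same way. Motifs were searched in RefSeq promoter windows, which 26 of 31 members matched by symbol. Alternatives were RLE and library-size scaling, other low-count filters, DESeq2 1.42.0, limma-voom (limma 3.58.1), edgeR's likelihood ratio test, a replicate block and leaving out each library.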

Additional observations from a re-analysis of the deposited data

How the results depend on the processing

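No member was called at an adjusted p of 0.05 under any of the 14 alternatives. Over the whole table, 0 genes were called with all libraries, 9 without a low-count filter, 5 with DESeq2, 11 with the likelihood ratio test and 0 to 5 when each library was left out (5 without saline replicate 3). Nrp2 kept its direction throughout. Its log2 fold change was -1.20 to -0.82 when each library was left out, and its adjusted p was lowest in the likelihood ratio test (0.0961), then in DESeq2 (0.113) and without a filter (0.212). The difference in the Nrp2 share was -12.2 to -9.38 percentage points when each library was left out and -8.77 per exon length. Members at an unadjusted p under 0.05 numbered 3 with all libraries (3.22% of all genes), 5 without a low-count filter (4.12%) and 2 to 4 when each library was left out (2.11% to 6.75%). Members without overlap numbered 2 with all libraries (7.51% of all genes) and 2 to 7 when each library was left out (13.4% to 22.5%). Of the 12 members given per library by rule, 4 had fold changes near 0 that changed sign. Sema3c was at 0.00031 without a filter, 0.0044 with limma-voom, 0.012 with the replicate block and -0.20 to 0.26 when each library was left out. Plxna2 was at -0.0037 with RLE scaling, -0.0038 with DESeq2 and -0.18 to 0.19 when each library was left out. Sema4f ranged from -0.18 to 0.060 and Nrp1 from -0.10 to 0.014 in the same way.

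The replicate numbers did not pair the libraries: correlations of same-numbered libraries were -0.079, 0.025 and -0.069, and 0 of 6 libraries correlated best with its own number. With the replicate block, 6 genes were called in place of 0, and 0 members, with Nrp2 at -1.05 (adjusted p = 0.421, edgeR quasi-likelihood).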
